A study of Mus musculus with 6 samples.

Results

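The genes described are 35 enzymes and carriers of glycolysis, pyruvate entry into mitochondria and the pentose phosphate pathway, taken by gene symbol from a written list, with no measured value in the rule, out of 53278 genes in the table. All 35 were in the table, and 34 passed the filter on low counts. Hk3 did not pass it. RNA was sequenced from group 2 innate lymphoid cells (ILC2s), tissue-resident lymphocytes without antigen receptors, taken from the visceral adipose tissue (VAT) of C57BL/6 mice that were 8 weeks old. Every mouse had been given 3 intraperitoneal injections of 1 µg IL-33, the cytokine that activates ILC2s, so neither group was naïve. The cells were sorted as lacking lineage markers and carrying CD45, ST2 and CD117, and were then cultured with IL-2 at 10 ng/mL and IL-7 at 10 ng/mL. The DTA-1 group (3 libraries) also received 5 µg/mL of DTA-1, an agonistic antibody to the costimulatory receptor GITR, and the isotype control group (3 libraries) received rat IgG2b. The labels and methods give 48 h of culture, whereas the study's results text gives a shorter time. The comparison addressed whether GITR engagement changed the transcripts of these enzymes in activated ILC2s.

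Glycolysis splits glucose into pyruvate in the cytosol and yields ATP without oxygen, and its flux is set mainly at hexokinase, phosphofructokinase and pyruvate kinase. Pyruvate is either reduced to lactate or carried into mitochondria, where the pyruvate dehydrogenase complex converts it to acetyl-CoA. The pentose phosphate pathway branches off at glucose-6-phosphate and supplies NADPH and ribose, and activated lymphocytes are known for high use of both routes. Transcript levels do not measure flux, which for several of these enzymes is set by metabolites and phosphorylation.

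Libraries held 30569351 to 35131329 expected counts, and values below are normalized counts, that is CPM (reads scaled to a common library size) after TMM normalization. A count of 0 allowed up to 3 counts, or 0.0854 to 0.0981 normalized counts, for counting error alone. All 11 ILC2 markers were detected, and their summed level was 8638 to 9143 normalized counts in the controls and 9114 to 9593 under DTA-1. Of the 11 markers 4 were higher and 7 lower in DTA-1, with a median log2 fold change of -0.04. The groups did not overlap for Il2ra, which was higher, and Gata3, which was lower. Neither the labels nor the methods say whether replicates came from separate animals or cultures, so p-values measure only the spread between these libraries. The library labelled DTA-1 replicate 1 stood nearer to isotype control than to its own group. The chi-square of its counts per degree of freedom was 7.69 to 8.86 against the isotype control libraries, 20.5 against DTA-1 replicate 2 and 21.4 against DTA-1 replicate 3. The isotype control libraries differed from each other by 8.99 to 13.1 on this measure, and DTA-1 replicates 2 and 3 by 8.88. The labels were not changed, and results are given both with this library and without it.

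With all 6 libraries 0 of the 34 members tested were differentially expressed, defined as an adjusted p under 0.05 and at least a 1.5-fold change, by the quasi-likelihood test of edgeR after Benjamini-Hochberg adjustment. The call rate over all 14361 genes tested was 0%. DESeq2's Wald test (0.099% of the 25247 genes it tested) and limma-trend (0%) also called 0 members. A fit with the replicate number as a block called 0 members and 0.00696% of all genes. The smallest adjusted p of a member in edgeR was 0.627. At an unadjusted p under 0.05 and any fold, edgeR passed 12 members, 11 higher and 1 lower in DTA-1, against 7.22% of all genes (4.11% higher and 3.11% lower). DESeq2 passed 11 of 35 members tested and limma-trend 12 of 34 on that rule, with no share over all genes given for these fits. None of the 12 reached 1.5-fold, a change that together with an unadjusted p under 0.05 was seen in 2.35% of all genes. The log2 fold changes of the 34 members ran from -0.53 to 0.31, with a median of 0.10, beside -0.01 over all genes. Of the members 24 were higher and 10 lower, and 48.1% of all genes were higher. The split became 20 and 14 when libraries were scaled by total counts alone, where 39.5% of all genes were higher. The 95% interval of the log2 fold change lay inside a 1.5-fold change in either direction for 28 of 34 members, and the 6 with wider intervals were Eno2, Eno3, Pdk2, Pfkfb2, Pfkfb4 and Rpia. In 4 of 34 members the 3 DTA-1 values did not overlap the 3 isotype control values (Aldoc, Pfkp and Pgd higher, Eno2 lower), a separation seen in 11.3% of all genes tested (5.26% higher and 6.03% lower). In bulk samples a lower transcript level from fewer cells of a type cannot be told apart from less RNA per cell.

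**Figure D1:**
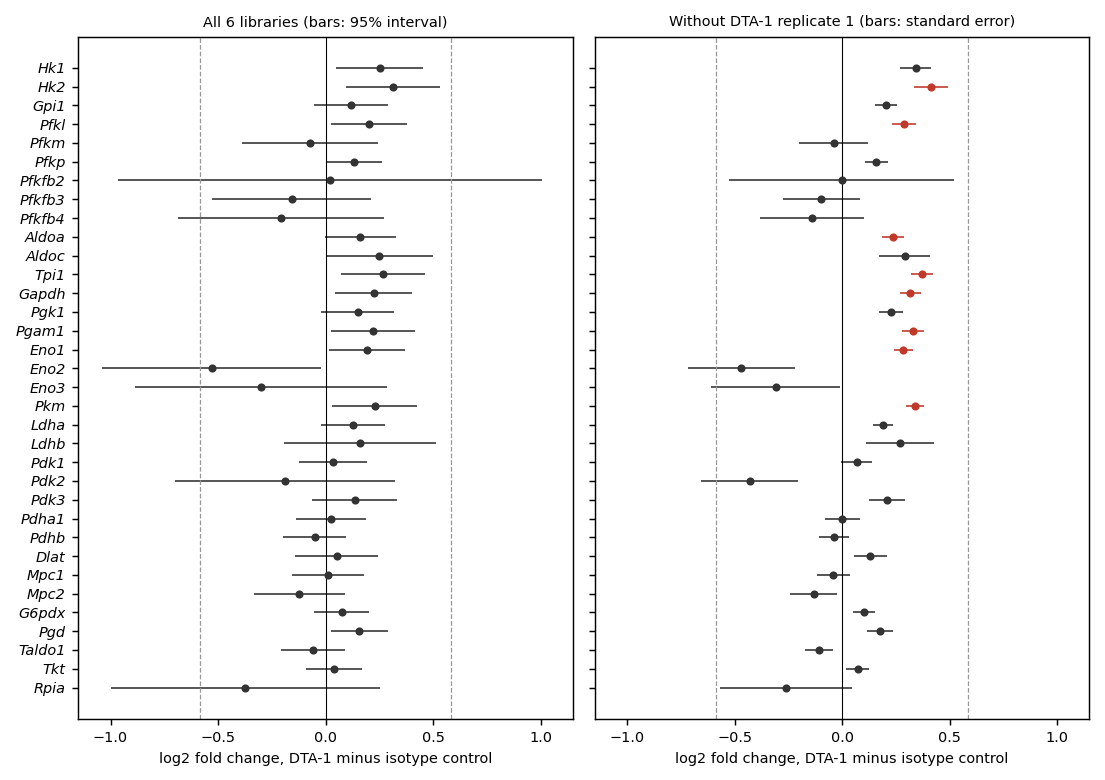
Log2 fold change of the 34 tested members from edgeR on the horizontal axis, on the left for all 6 libraries with 95% intervals and on the right without DTA-1 replicate 1 with standard errors; dashed lines mark 1.5-fold and red marks an adjusted p under 0.05. On the left the values run from -0.53 (Eno2) to 0.31 (Hk2) with none in red, and on the right 8 glycolytic enzymes are red, from 0.24 (Aldoa) to 0.42 (Hk2).

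The DTA-1 libraries differed from each other in where these genes lay against the controls. By the root mean square of the members' log2 differences they were no further apart (0.25 to 0.297) than the isotype control libraries (0.243 to 0.389). On that measure DTA-1 replicate 1 was 0.234 to 0.291 from the isotype control libraries, 0.259 from DTA-1 replicate 2 and 0.297 from DTA-1 replicate 3. DTA-1 replicate 1 lay inside the range of the isotype control libraries for 21 of 35 members, above it for 4 and below it for 10. DTA-1 replicate 2 lay above that range for 21 members and inside it for 10, and DTA-1 replicate 3 lay above it for 21 and inside it for 7. No share over all genes is given for these counts by library, so they cannot be read as particular to these enzymes. The members together took 2.16%, 2.11% and 2.15% of all counts in the controls and 2.13%, 2.46% and 2.45% under DTA-1, in replicate order. Replicates 2 and 3 were therefore above every control library, and replicate 1 was between them. The mean share was 0.206 percentage points higher in DTA-1, and 0.311 points higher without replicate 1. Pkm, Eno1, Aldoa and Ldha made up 64.3% to 65.7% of the members' counts in every library, so the summed share is mostly a measure of those 4 transcripts. Shares, sums and ratios are given with no test. The smallest p of an exact permutation test between groups of 3 is 0.1.

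**Figure D2:**
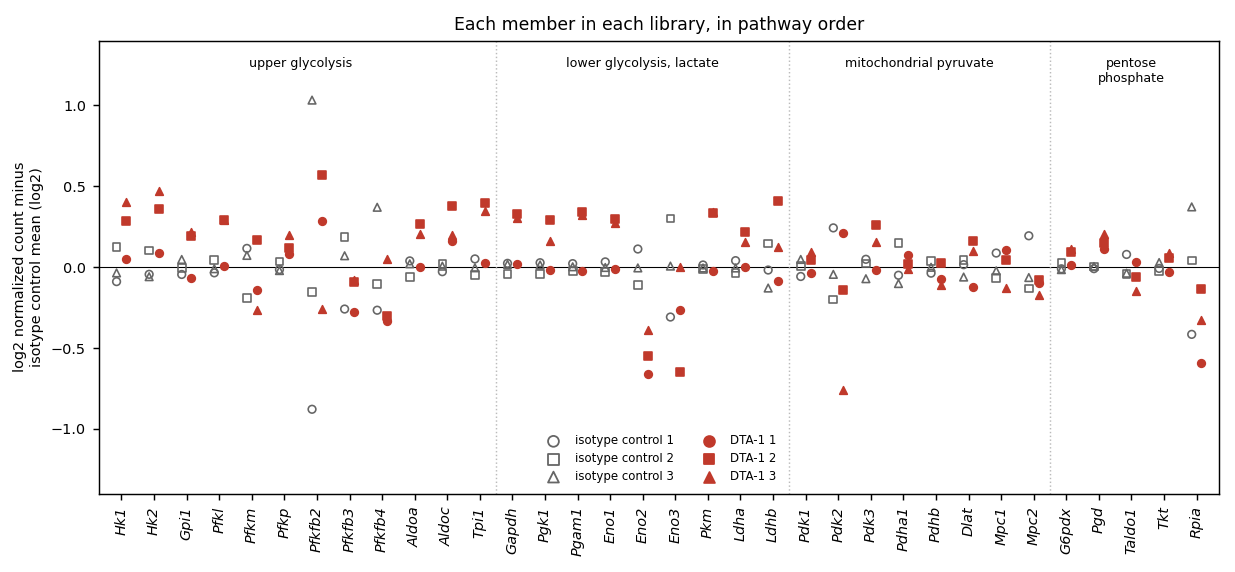
Log2 normalized count of each of the 34 tested members in each library minus the isotype control mean, with open symbols for isotype control, filled ones for DTA-1 and a shape for each replicate number. The median deviation is near 0 in the isotype control libraries and in DTA-1 replicate 1 (-0.01), 0.16 in DTA-1 replicate 2 and 0.12 in DTA-1 replicate 3.

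Without DTA-1 replicate 1, which left 2 DTA-1 libraries and let Hk3 pass the filter, 8 of 35 members had an adjusted p under 0.05 in edgeR without a limit on fold, and all 8 were higher in DTA-1. That library was singled out by its likeness to the controls in these same data, so p-values without it are too small and describe the 5 remaining libraries. The 8 were the hexokinase Hk2, the phosphofructokinase Pfkl, Aldoa, Tpi1, Gapdh, Pgam1, Eno1 and Pkm. On the same rule 1.7% of all genes passed, 1.35% higher and 0.342% lower. None of the 8 reached 1.5-fold, so 0 members were called by the full rule, which called 0.744% of all genes. The members' median log2 fold change was 0.16 in these libraries, beside -0.02 over all genes. In 21 members the remaining DTA-1 values lay outside the isotype control range, 19 above and 2 below (Eno2 and Taldo1), where 31.2% of all genes separated (15.4% above and 15.9% below). Leaving out any other library gave 0 members and 0% of all genes with an adjusted p under 0.05 in edgeR. With an unadjusted one 2 to 5 members passed, and no share over all genes is given for that rule in these fits. Because abundant genes are measured more precisely, the same counts were taken, as a choice made after the values were seen, over the 2339 genes with a mean of at least 100 normalized counts. With all 6 libraries 10 of the 20 members at that level were higher at an unadjusted p under 0.05, beside 8.08% of these genes, and 2 of the 20 did not overlap between groups, beside 10.7%. All 8 members were among the 20, and 4.79% of these genes were higher on the rule that selected them. Of those 20 members 16 lay above the isotype control range, beside 29% of the abundant genes.

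Regulatory sequence is shown for those of the 8 members that have a single transcription start in RefSeq. They are 5 of the 19 members that were above every control in both DTA-1 replicates 2 and 3, picked by the fit without DTA-1 replicate 1, and are examples. Each line gives the 250 bases upstream of the RefSeq start in build GRCm38.p6, 5′ to 3′ on the gene's strand. The gene positions that go with the counts start further upstream for some. By them the Pfkl and Gapdh windows lie inside the gene and the Tpi1 window lies partly inside it. Capitals mark ACGTG or GCGTG on either strand (written CACGT or CACGC when on the other), the core of the hypoxia response element, through which HIF-1 is known to act on many glycolytic genes. A CACGTG site would hold ACGTG on both strands.
Hk2, chr6:82774455-82774704, - strand, 2 ACGTG: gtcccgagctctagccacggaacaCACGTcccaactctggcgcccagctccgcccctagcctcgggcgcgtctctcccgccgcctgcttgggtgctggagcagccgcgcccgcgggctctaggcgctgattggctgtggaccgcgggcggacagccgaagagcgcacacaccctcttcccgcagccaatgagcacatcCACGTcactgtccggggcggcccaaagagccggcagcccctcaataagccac
Pfkl, chr10:78009808-78010057, - strand, 1 GCGTG: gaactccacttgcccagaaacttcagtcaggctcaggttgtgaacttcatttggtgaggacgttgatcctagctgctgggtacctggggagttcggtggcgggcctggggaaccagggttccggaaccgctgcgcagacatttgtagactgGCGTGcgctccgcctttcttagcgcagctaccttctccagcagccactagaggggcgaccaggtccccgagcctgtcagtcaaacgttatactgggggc
Tpi1, chr6:124814159-124814408, - strand, no match: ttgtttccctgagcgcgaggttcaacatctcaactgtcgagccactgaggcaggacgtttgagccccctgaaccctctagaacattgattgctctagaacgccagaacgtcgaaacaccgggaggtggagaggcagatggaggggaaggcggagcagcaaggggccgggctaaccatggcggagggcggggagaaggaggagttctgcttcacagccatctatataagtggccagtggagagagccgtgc
Gapdh, chr6:125165774-125166023, - strand, 2 GCGTG: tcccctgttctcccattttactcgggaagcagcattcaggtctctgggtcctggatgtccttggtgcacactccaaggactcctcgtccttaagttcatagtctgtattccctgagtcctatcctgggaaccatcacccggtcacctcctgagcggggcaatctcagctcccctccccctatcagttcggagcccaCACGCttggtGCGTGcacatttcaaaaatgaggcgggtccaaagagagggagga
Pgam1, chr19:41911621-41911870, + strand, 1 ACGTG and 2 GCGTG: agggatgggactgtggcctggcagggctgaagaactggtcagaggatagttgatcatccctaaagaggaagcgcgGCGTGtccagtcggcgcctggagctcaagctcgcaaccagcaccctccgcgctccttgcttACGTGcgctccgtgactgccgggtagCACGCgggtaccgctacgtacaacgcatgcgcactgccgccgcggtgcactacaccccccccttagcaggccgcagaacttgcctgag

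Over all RefSeq starts of the 35 members, 53 windows of this length in all, ACGTG was found for 13 members (37.1%) and GCGTG for 25 (71.4%), against 18.5% and 30.9% of 27025 genes. At least 1 of the pair was found for 31 members (88.6%) and for 41.5% of genes, and counted per window the shares were 77.4% and 38.6%. The members' windows were also richer in G and C, with a median of 60.4% against 52.4% over all windows, and the part of base composition in the motif shares was not tested. These matches describe letters in a window and are not evidence of binding. Tpi1 had no match in its window. Sites outside the windows were not examined, and whether matches go with fold changes was not tested.

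Hexokinases trap glucose as glucose-6-phosphate, and of the 3 listed Hk1 was the main transcript. Per kilobase of transcript, isotype control cells held 114 ± 8.85 normalized counts of Hk1, 16.8 ± 1.05 of Hk2 and 0.0676 of Hk3 (SD, n = 3). Hk1 (chr10:62268855-62379908 in GRCm38, the build of all gene positions here) was 411, 476 and 426 normalized counts in the controls (replicates 1, 2 and 3, an order kept throughout) and 452, 533 and 577 under DTA-1. DTA-1 replicates 2 and 3 were above every control library, and replicate 1 lay between control replicates 3 and 2. The log2 fold change was 0.25 (SE 0.09, edgeR adjusted p = 0.632), and without DTA-1 replicate 1 it was 0.34 (SE 0.07, edgeR adjusted p = 0.0512, with a range of 0.0512 to 0.999 over all alternatives). Hk2 (chr6:82725025-82774454), the isozyme induced by insulin and hypoxia, was 89.6, 99.2 and 88.7 normalized counts in the controls and 98.0, 119 and 128 in DTA-1. Its lowest DTA-1 library, replicate 1, was just below the highest control library. The log2 fold change of 0.31 (SE 0.10, interval 0.10 to 0.53, edgeR adjusted p = 0.627) was the highest among members, and it was 0.42 (SE 0.08, edgeR adjusted p = 0.0343, range 0.0343 to 0.999) without replicate 1. Hk2 relative to Hk1 overlapped between groups, with a difference of 0.06 in their log2 ratio. Hk3, an isozyme of myeloid cells, had 6, 6 and 11 counts in the controls and 0, 9 and 22 under DTA-1, too few for a comparison. Gpi1, which turns glucose-6-phosphate into fructose-6-phosphate, was 607 to 648 normalized counts in the controls and 598, 716 and 728 under DTA-1, with a log2 fold change of 0.12 (SE 0.08, edgeR adjusted p = 0.766).

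Phosphofructokinase commits sugar to glycolysis, and it is assembled from liver (Pfkl), muscle (Pfkm) and platelet (Pfkp) subunits. Pfkp stood at 153 ± 3.27 normalized counts per kilobase of its principal transcript in isotype control, Pfkl at 79.6 ± 2.22 and Pfkm at 7.86 ± 0.871. Pfkl (chr10:77986947-78010083) was 290, 306 and 295 normalized counts in the controls and 298, 362 and 363 under DTA-1. Replicates 2 and 3 again lay well above the controls and replicate 1 within their range. Its log2 fold change was 0.20 (SE 0.08, edgeR adjusted p = 0.656) with all libraries and 0.29 (SE 0.06, edgeR adjusted p = 0.0360, range 0.0360 to 0.999) without replicate 1. Pfkp (chr13:6579768-6648777) was 627, 649 and 625 normalized counts in the controls and 671, 688 and 727 under DTA-1. Every DTA-1 library, replicate 1 included, was above every control library. Groups did not overlap in 4 of 34 members and in 11.3% of all genes tested. The difference was small, 0.13 on the log2 scale (SE 0.06, edgeR adjusted p = 0.677), and did not pass the test. Exons of Pfkp share 748 bases with the opposite-strand gene Pitrm1, whose count was 41.9% of that of Pfkp, and whether reads were counted by strand is not given in the sources used here. Pfkm, at 19.8 to 24.4 normalized counts in the controls and 18.8 to 25.3 in DTA-1, had a log2 fold change of -0.07 (SE 0.14), and 18 of its exon bases overlap the more highly counted Senp1 on the other strand.

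The PFKFB enzymes make and break fructose-2,6-bisphosphate, the strongest activator of phosphofructokinase. All 3 listed were scarce, with means of 2.66 (Pfkfb2), 11.9 (Pfkfb3) and 7.99 (Pfkfb4) normalized counts in isotype control. Pfkfb3, the isoform linked to proliferation and hypoxia, was 9.84, 13.4 and 12.4 normalized counts in the controls and 9.70, 11.1 and 11.1 in DTA-1. Those groups overlapped, and the log2 fold change was -0.16 (SE 0.17, edgeR adjusted p = 0.871). Pfkfb4 had a log2 fold change of -0.21 (SE 0.22), and Pfkfb2, whose exons overlap the more highly counted Yod1 on the other strand, one of 0.02 (SE 0.45).

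Aldolase splits fructose-1,6-bisphosphate, and Aldoa was the most abundant member per kilobase, at 2135 ± 77.6 normalized counts in isotype control against 7.39 ± 0.127 for Aldoc. Aldoa (chr7:126795234-126809108) was 3313, 3093 and 3272 normalized counts in the controls and 3225, 3882 and 3724 under DTA-1. Replicate 1 was inside the control range and the other DTA-1 libraries above it. The log2 fold change was 0.16 (SE 0.07, edgeR adjusted p = 0.692), or 0.24 (SE 0.05, edgeR adjusted p = 0.0481, range 0.0481 to 0.999) without that library. Aldoc (chr11:78322968-78327781), the form best known from brain, was 20.2, 20.9 and 20.7 normalized counts in the controls and 23.0, 26.8 and 23.6 in DTA-1. Its groups did not overlap, with a log2 fold change of 0.25 (SE 0.11, edgeR adjusted p = 0.692). Tpi1 (chr6:124810586-124814296), which interconverts the triose phosphates released by aldolase, was 783, 731 and 754 normalized counts in the controls and 770, 994 and 963 under DTA-1. DTA-1 replicates 2 and 3 stood clear of the other 4 libraries. Its log2 fold change of 0.27 (SE 0.09, interval 0.07 to 0.46, edgeR adjusted p = 0.627) became 0.37 (SE 0.05, edgeR adjusted p = 0.00834, range 0.00834 to 0.999) without replicate 1.

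**Figure D3:**
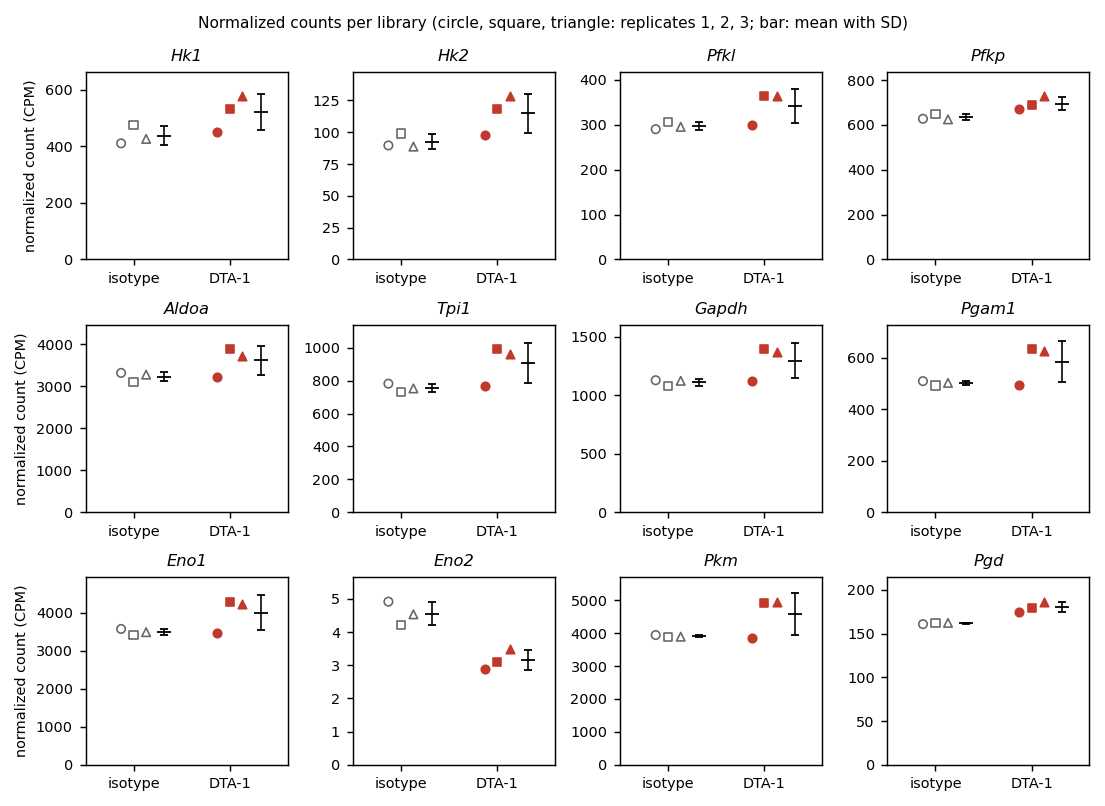
Normalized counts of 12 members in each library, with bars for the mean and SD of each group (n = 3). For enzymes such as Tpi1 and Gapdh DTA-1 replicates 2 and 3 sit above all control libraries and replicate 1 sits among them, whereas for Pgd and Pfkp all 3 DTA-1 libraries are above the controls and for Eno2 all 3 are below.

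The payoff steps from glyceraldehyde-3-phosphate to pyruvate showed the same arrangement of libraries. Gapdh (chr6:125161715-125166467), which forms 1,3-bisphosphoglycerate and NADH and is often used as a reference transcript, was 1128, 1078 and 1123 normalized counts in the controls and 1123, 1395 and 1369 under DTA-1. Its log2 fold change was 0.22 (SE 0.08, edgeR adjusted p = 0.632), and 0.32 (SE 0.05, edgeR adjusted p = 0.0122, range 0.0122 to 0.999) without replicate 1. Pgk1, the first ATP-producing step, was 763 to 800 normalized counts in the controls and 777, 960 and 877 under DTA-1, with a log2 fold change of 0.15 (SE 0.08, edgeR adjusted p = 0.725). In all 3 of these payoff and triose genes, Tpi1, Gapdh and Pgk1, DTA-1 replicate 1 fell within the control range. Pgam1 (chr19:41911871-41918664), which moves the phosphate of 3-phosphoglycerate, was 508, 492 and 502 normalized counts in the controls and 493, 633 and 626 under DTA-1. Its log2 fold change was 0.22 (SE 0.09, edgeR adjusted p = 0.656), and 0.33 (SE 0.05, edgeR adjusted p = 0.0122, range 0.0122 to 0.999) without replicate 1.

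Enolase makes phosphoenolpyruvate, and the fold changes of its forms had opposite signs. Eno1 (chr4:150236721-150248879), the form of most tissues, was 3579, 3423 and 3495 normalized counts in the controls and 3471, 4298 and 4234 under DTA-1. Replicate 1 was inside the control range, and the log2 fold change was 0.19 (SE 0.08, edgeR adjusted p = 0.657), or 0.29 (SE 0.04, edgeR adjusted p = 0.0122, range 0.0122 to 0.999) without it. Eno2 (chr6:124760053-124769673), the neuronal form, was 4.92, 4.22 and 4.54 normalized counts in the controls and 2.88, 3.11 and 3.48 in DTA-1, from 148 to 174 and 89 to 111 counts. All DTA-1 libraries, replicate 1 included, were below all controls. The log2 fold change of -0.53 (SE 0.23, interval -1.04 to -0.02, edgeR adjusted p = 0.677) was the largest in size among members and did not pass the test. The log2 ratio of Eno2 to Eno1 was -9.51, -9.66 and -9.59 in the controls and -10.24, -10.43 and -10.25 in DTA-1. That ratio, which does not depend on library scaling, differed by -0.72 with all libraries and by -0.76 to -0.65 with 1 library left out, from a transcript that was about 5 normalized counts or less. Eno3, the muscle form, had a log2 fold change of -0.30 (SE 0.27, edgeR adjusted p = 0.843). The summed level of 8 skeletal muscle markers was 3.25 to 5.00 normalized counts in the controls and 4.23 to 4.53 in DTA-1, with Myh1 and Myh4 at 0 in every library.

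Pkm (chr9:59656368-59679375), the pyruvate kinase gene whose spliced forms are PKM1 and PKM2, was 3941, 3879 and 3891 normalized counts in the controls and 3839, 4922 and 4956 under DTA-1. The control libraries spanned a narrow range, DTA-1 replicate 1 was below it, and replicates 2 and 3 were far above it. Its log2 fold change was 0.23 (SE 0.09, edgeR adjusted p = 0.655) with all libraries and 0.34 (SE 0.04, edgeR adjusted p = 0.00363, range 0.00363 to 0.999) without replicate 1, the smallest adjusted p of any member in those libraries. The table counts whole genes, so the spliced forms were not analysed here. Ldha, which reduces pyruvate to lactate, was 3153, 2991 and 3056 normalized counts in the controls and 3070, 3571 and 3421 under DTA-1. Replicate 1 was again within the control range, and its log2 fold change of 0.13 (SE 0.07, edgeR adjusted p = 0.732) did not pass the test. Ldhb, the form favouring lactate oxidation, was 10.6 normalized counts per kilobase in isotype control against 1736 ± 46.4 for Ldha. The log2 ratio of Ldhb to Ldha differed by 0.02 between groups, which overlapped.

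**Figure D4:**
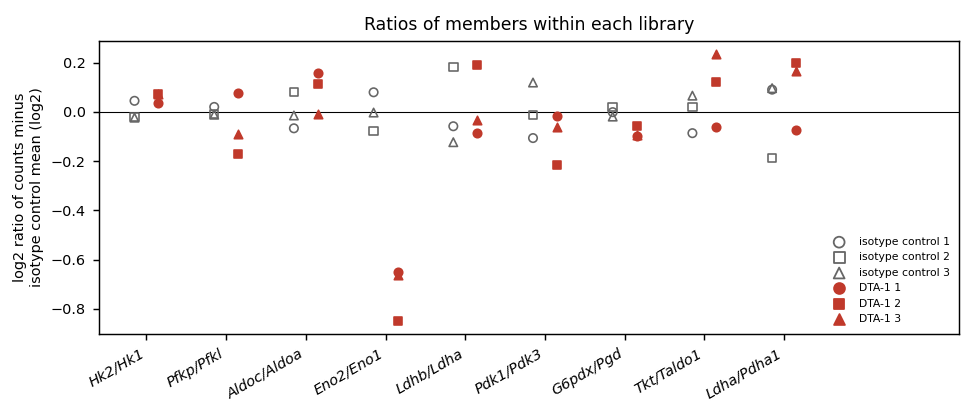
Log2 ratio of the counts of a pair of members in each library, minus the isotype control mean of that ratio. The groups separate for Eno2 to Eno1 (0.72 lower in DTA-1) and for G6pdx to Pgd (0.08 lower), and overlap for the other pairs. No share over ratios of other genes is given beside these.

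Near-identical copies could draw reads from several of these genes, and those with at least 95% identity over at least 300 bases were counted. The annotation held copies of 11 members. Their counts came to 11% of the member's own for Mpc1 (1 copy), 8.32% for Pgk1 (4 copies, 2 of them in the table), 5.56% for Eno1 (4, with 3 in the table), 4.93% for Pgam1 (1) and 4.10% for Gapdh (92, with 90 in the table). For Gpi1, Tpi1, Pkm, Ldha, Ldhb and Pdhb they came to between 0.132% and 1.34%. Adding the copies to the member moved the log2 ratio of group means most for Mpc1, from 0.0101 to 0.0204, and gave 0.16 for Pgk1, 0.20 for Eno1, 0.23 for Pgam1 and 0.22 for Gapdh.

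Among the genes that steer pyruvate into mitochondria no member passed, and their log2 fold changes ran from -0.19 to 0.14. Of the 8 listed 5 were higher and 3 lower, 0 had an unadjusted p under 0.05 in edgeR, and the median log2 fold change was 0.02 with all libraries and -0.02 without replicate 1. Over all genes tested 48.1% were higher and 7.22% had an unadjusted p under 0.05, so 0 of 8 is near that share. The pyruvate carrier subunit Mpc1 was 175 to 195 normalized counts in the controls and 168 to 198 under DTA-1, a log2 fold change of 0.01 (SE 0.08). Mpc2, its partner, had one of -0.12 (SE 0.10). Pyruvate dehydrogenase kinases switch the complex off, and Pdk1, a known HIF-1 target, was 86.4, 90.4 and 92.9 normalized counts in the controls and 87.6, 92.5 and 96.0 in DTA-1. These groups overlapped, with a log2 fold change of 0.03 (SE 0.07, edgeR adjusted p = 0.948). Pdk2 and Pdk3 had log2 fold changes of -0.19 (SE 0.23) and 0.14 (SE 0.09), and Pdk3 and Dlat were above every control in DTA-1 replicates 2 and 3. Per kilobase the order in isotype control was Pdk3 (30.6), Pdk1 (17.3) and Pdk2 (5.39). The complex's own subunits Pdha1, Pdhb and Dlat had log2 fold changes of 0.02 (SE 0.07), -0.05 (SE 0.07) and 0.05 (SE 0.09), with overlapping groups in each. The log2 ratio of Ldha to Pdha1 differed by 0.10 between overlapping groups, and by 0.0049 (without isotype control replicate 2) to 0.18 (without DTA-1 replicate 1) when 1 library was left out.

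**Figure D5:**
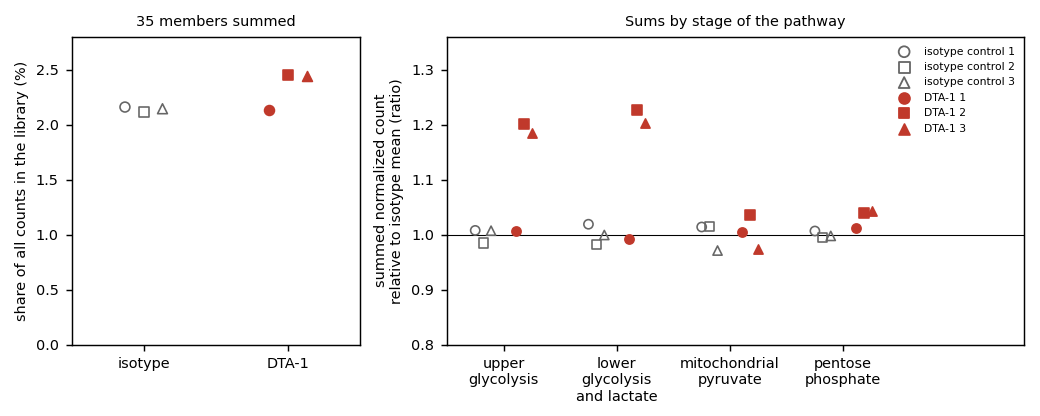
Share of all counts taken by the 35 members in each library (left, in percent), and summed normalized counts of each pathway stage relative to the isotype control mean (right). Upper and lower glycolysis reach 1.19 to 1.23 in DTA-1 replicates 2 and 3 and 0.99 to 1.01 in replicate 1, whereas mitochondrial pyruvate genes stay between 0.97 and 1.04 and pentose phosphate genes between 1.00 and 1.04 in all 6 libraries.

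In the oxidative arm of the pentose phosphate pathway, both NADPH-forming dehydrogenases were measured with little spread. G6pdx, which takes glucose-6-phosphate into the pathway, was 458, 469 and 456 normalized counts in the controls and 466, 492 and 498 under DTA-1, a log2 fold change of 0.07 (SE 0.06, edgeR adjusted p = 0.813). Pgd (chr4:149149991-149166771), the next dehydrogenase, was 161, 162 and 162 normalized counts in the controls and 175, 179 and 186 under DTA-1. Every DTA-1 library of Pgd, replicate 1 included, was above every control library, and the mean was 11.5% higher. Groups separated in either direction in 11.3% of all genes tested. The log2 fold change was 0.16 (SE 0.06, interval 0.03 to 0.29, edgeR adjusted p = 0.655), and 0.18 (SE 0.06, edgeR adjusted p = 0.216, range 0.216 to 0.999) without replicate 1, so Pgd did not pass in either set of libraries. The log2 ratio of G6pdx to Pgd was 1.51, 1.53 and 1.49 in the controls and 1.41, 1.46 and 1.42 in DTA-1, without overlap. Exons of G6pdx share 418 bases with Ikbkg on the other strand, whose count was 12.8% of that of G6pdx. The non-oxidative enzymes exchange sugars between this pathway and glycolysis. Transketolase (Tkt) had a log2 fold change of 0.04 (SE 0.06), transaldolase (Taldo1) one of -0.06 (SE 0.07) and the ribose-5-phosphate isomerase Rpia, at 2.43 to 4.73 normalized counts, one of -0.37 (SE 0.28, edgeR adjusted p = 0.810).

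Per kilobase of principal transcript the members spanned a wide range in isotype control cells. Aldoa led with 2135 normalized counts, followed by Ldha (1736 ± 46.4), Eno1 (1726 ± 38.6) and Pkm (1605 ± 13.6), of which Ldha and Eno1 differed by less than their spread. A lower group held Gapdh (781), Tpi1 (470), Pgk1 (430) and Pgam1 (282). Taldo1 (232) and G6pdx (174) were the highest of the pentose phosphate enzymes, with Pgd at 72.9. Hk2 (16.8), Pdk2 (5.39), Pfkfb3 (2.56) and Eno2 (1.63) were near the lower end. The order depends on the transcript chosen: with the length of all merged exons Ldha came first and Gapdh moved from rank 5 to rank 7.

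By stage, upper glycolysis (13 members, 12 tested) had 9 higher and 3 lower members and a median log2 fold change of 0.15, and lower glycolysis with lactate dehydrogenase (9 members) had 7 higher and 2 lower and a median of 0.16. The members higher at an unadjusted p under 0.05 were 6 in upper glycolysis (Hk1, Hk2, Pfkl, Pfkp, Aldoc and Tpi1), 4 in lower glycolysis (Gapdh, Pgam1, Eno1 and Pkm) and 1 in the pentose phosphate pathway (Pgd). Over all genes tested 4.11% were higher on that rule, and 48.1% were higher at any p. All 8 members that passed the adjusted test without DTA-1 replicate 1 were in the glycolytic stages, 4 in each. In those libraries 1.35% of all genes were higher on the rule that these 8 passed. Whether the stages differed from each other was not tested.

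Markers of other cell types were summed in each library. The sort required CD45 and excluded cells with CD11b, CD11c, Gr-1, CD3ε, CD45R, TCRγδ, Ter119 or FCεRI, a gate that leaves out most of the cell types listed here. The summed level of 7 fibroblast markers was 2.20 to 8.42 normalized counts in the controls and 0.288 to 3.98 in DTA-1, with none of the 7 at 0 in every library. Within that list Pdgfra had 68, 14 and 25 counts in the controls against 0 in each DTA-1 library, and Col1a1 had 60, 56 and 68 against 0, 9 and 3. Neither gene overlapped between groups, with edgeR adjusted p = 0.452 and 0.491. The rest of the list overlapped. Col1a2 had 11, 4 and 94 counts against 0, 0 and 31, and Col3a1 57.3, 3 and 102 against 0, 0 and 92. Dcn had 20, 0 and 4 against 0, 0 and 1, and Lum 0, 0 and 3 against 0 in each. Pdgfrb was higher in DTA-1 replicate 1, with 0, 0 and 1 counts in the controls against 27, 0 and 0. Among endothelial markers the sum was 18.4 to 24.4 in the controls and 10.6 to 18.3 in DTA-1, nearly all of it Pecam1, with Cdh5 at 0 in every library. Pecam1 had an edgeR adjusted p = 0.627 with all libraries. Without DTA-1 replicate 1, Pdgfra, Col1a1 and Pecam1 were all called lower, in the same libraries in which the 8 members passed, and of the ILC2 markers Areg was called higher. Macrophage markers summed to 6.44 to 12.2 and 8.67 to 11.9 (C1qb at 0), erythroid markers to 12.7 to 13.8 and 9.39 to 13.7, and T cell markers to 40.1 to 53.3 and 45.8 to 50.3 (Cd8a at 0). Most of the T cell sum was Cd3g, at 36.2 to 48.6 in the controls and 41.5 to 45.3 in DTA-1. In any library Cd3e reached at most 3.72, Cd3d 1.23 and Cd4 0.972. Neutrophil markers reached at most 1.05 (S100a8, S100a9 and Retnlg at 0), and B cell, adipocyte and mesothelial markers at most 0.502. Marker sums do not measure how much enzyme RNA such cells held, and the part of these cells in the results was not tested.

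Of 42 other enzymes of these pathways that were listed by textbook role, 28 passed the filter, 16 of them higher and 12 lower in DTA-1, and edgeR called 0, with 4 at an unadjusted p under 0.05. They were Pgm2 and the enolase copy Eno1b, both higher, and Pgm2l1 and Tktl1, both lower. Over all genes tested 48.1% were higher and 7.22% had an unadjusted p under 0.05. Tktl1, a transketolase-like gene, was the only one of the 4 past 1.5-fold, with 33, 11 and 15 counts in the controls and 5, 3 and 5 under DTA-1 and a log2 fold change of -1.98 (SE 0.68, edgeR adjusted p = 0.632). Pcx, the mitochondrial pyruvate carboxylase, was 35.4, 38.7 and 45.8 normalized counts in the controls and 34.7, 62.7 and 64.2 in DTA-1. Replicate 1 was below every control library and replicates 2 and 3 above them. Its log2 fold change was 0.43 (SE 0.20, edgeR adjusted p = 0.692), and 0.67 without replicate 1, where it was the only one of these enzymes to be called. Of all genes 0.744% were called in those libraries. At an adjusted p under 0.05 without a limit on fold, Eno1b also passed there, with a log2 fold change of 0.33, beside 1.7% of all genes.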

How the data were processed

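RNA of 3 isotype control and 3 DTA-1 libraries, each prepared from 10 ng, was sequenced. The authors deposited expected counts, that is unnormalized read estimates for each gene, and 79.5% of the values were whole (tolerance 1e-09). The submitters' processing notes name build mm10, bcl2fastq 2.17.1.14, STAR 2.5.3a and Partek. The annotation release, mapping parameters and use of strand are not given in the sources used here. No column was left out, and the file held no comparison of the authors.

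Counts were rounded and fitted with edgeR 4.0.16 in R 4.3.3, using filterByExpr, TMM scaling, the robust quasi-likelihood F test and Benjamini-Hochberg adjustment over all 14361 genes tested. Called genes had an adjusted p under 0.05 and at least a 1.5-fold change. Standard errors were derived from the F statistic. Groups came from the sample titles, with no covariate. Totals were 30569351 to 35131329 expected counts, so 3 counts equal 0.0854 to 0.0981 CPM. The alternatives were DESeq2 1.42.0 (size factors and Wald test), total counts, limma-trend 3.58.1, no filter, a minimum of 10 counts in all libraries, a block for replicate number, leaving out each library, and an unadjusted p. The procedure was tested on simulated data.

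The members and lists were chosen with earlier results of these data known. All members are named, with every library's value for those with an unadjusted p under 0.05, a 1.5-fold change, groups without overlap or a call when 1 library is left out, and for some others as well. Of the other enzymes listed, those past an unadjusted p under 0.05 and 1.5-fold or called without 1 library are given in full, and Pgm2, Pgm2l1 and Eno1b, named after their values were seen, complete a count. Coordinates are those of the table (GRCm38), and 32 of 35 members had the same ones in GENCODE mouse release 21, which gave transcript lengths and overlaps. Copies were found with BLAST 2.17.0. Promoters are from RefSeq, where all 35 members matched. Figures were drawn with matplotlib 3.10.9.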

Additional observations from a re-analysis of the deposited data

How the results depend on the processing

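No member was called under any alternative run, and the median log2 fold change of the members stayed positive, from 0.06 with total counts to 0.16 without DTA-1 replicate 1. Over all genes the median was -0.04 with total counts and -0.02 without DTA-1 replicate 1. Leaving out that library moved the median, the summed share (from 0.206 to 0.311 percentage points) and the members with an adjusted p under 0.05 (from 0 to 8), as reported. Over all genes edgeR called 0 with all libraries, against 25 by DESeq2's Wald test, 2 with no filter, 1 with the replicate block, 337 by an unadjusted p and 0 to 111 with 1 library left out, the highest without DTA-1 replicate 1. Other enzymes called went from 0 to 1 by an unadjusted p (Tktl1), and ranged from 0 to 1 with 1 library left out. The cause was not tested. With the replicate block 0 members were called. Same-numbered libraries deviated with correlations of -0.0069, -0.00285 and 0.0152. Those of libraries with different numbers ran from -0.0145 to 0.0161. Values this near to each other cannot show whether the numbers pair the libraries.

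Of 442 member values under the alternatives 16 changed sign, in 7 members whose log2 fold change was at most 0.19 in size. With total counts they were Pfkfb2 (-0.018), Pdk1 (-0.0037), Pdha1 (-0.011) and Mpc1 (-0.026). With 1 library left out the range spanned 0 for Pfkm (-0.20 to 0.017), Pfkfb2 (-0.31 to 0.71), Pdk2 (-0.43 to 0.034), Pdha1 (-0.026 to 0.10), Dlat (-0.0016 to 0.13) and Mpc1 (-0.041 to 0.074). At a few normalized counts, as for Pfkfb2, Eno2, Eno3 and Rpia, depth and 3 libraries a group limit what a change of this size can show.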
